A study of Homo sapiens with 12 samples.

Results

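Complex I (NADH:ubiquinone oxidoreductase) is the largest enzyme of the mitochondrial respiratory chain. It takes electrons from NADH, passes them along iron-sulfur clusters to ubiquinone and pumps protons across the inner membrane. Most of its subunits are encoded in the nucleus, translated on cytosolic ribosomes and imported, while the remainder are made inside mitochondria from mitochondrial DNA. The values described here are those of the nuclear-encoded subunit genes. Members were the genes whose symbol is NDUFA, NDUFB, NDUFC, NDUFS or NDUFV followed by digits, or NDUFAB1, with the assembly factors (NDUFAF) left out. This gave 36 of the 15534 genes listed by the authors, 15299 of them with a symbol. A further 2 such symbols, NDUFB3 and NDUFS4, were not analysed here. NDUFA4 meets the rule by name and was kept, although it is known as a subunit of complex IV. NDUFA4L2 and the readthrough gene NDUFC2-KCTD14 do not meet it.

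The cells were HEK293T, a human embryonic kidney cell line. They were treated with an inhibitor of PRMT1, with an inhibitor of PRMT4 or with DMSO, the solvent. PRMT1 and PRMT4 (also named CARM1) are enzymes that methylate arginines in proteins. For each treatment the lysate was separated on a sucrose gradient of 10 to 50%, and RNA was sequenced from the total input and from the fractions with 1, with 2 and with 3 or more ribosomes per mRNA. This gave 12 libraries, 1 for each treatment and fraction. The compounds, doses and treatment times are not stated in the labels. The fraction columns are named R1, R2 and R3, and their reading as 1, 2 and 3 or more ribosomes rests on the numbers in the sample titles. The fractions with 1 ribosome (monosomes), 2 (disomes) and 3 or more (the heavy fraction) carry these names below. In each list of 4 values the order is input, 1 ribosome, 2 ribosomes and 3 or more ribosomes.

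Levels are FPKM, fragment counts scaled to transcript length and library size. The lowest values fell in steps, and over 1-transcript genes 91.8 to 95.7% of low values lay within 0.1 of a whole number of fragments. The steps put the libraries at about 440529 to 602410 counted fragments, shallow for single genes. A member had a median of about 1.75 fragments per library, against 4.15 for a gene of the 10706 tested. Of 432 member values, 134 (31.0%) were 0, against 15.7% over the tested genes. Over all genes the FPKM summed to 201967 for the input of DMSO cells, against 329897 to 425444 for the rest of the libraries. Of the 8 marker genes of other cell types that were looked up, 4 were in the table; COL1A1 and EPCAM averaged 0.522 and 0.439 FPKM, HBA1 23.7 and GFAP 153.

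To show the 5′ ends of the mRNAs that carry most of the signal, the first 30 bases from the RefSeq transcription start (build GRCh38.p14) are given for the 8 members with the highest mean FPKM. They are written 5′ to 3′, and capitals mark the letters ATGGCG where a run holds them.
NDUFB2: gaggcggctggggaccgcggggcggacggg
NDUFA2: gcacttggcctgaagacctggaattggcga
NDUFB10: gtagcgggcgacctaggccgcgggacccgg
NDUFA13: gggatactgcgagtATGGCGgcgtcaaagg
NDUFA6: ggggttgtggagtggatgctttggcaagat
NDUFB11: gagaccctgcagcaccatctgtcATGGCGg
NDUFA3: gctgtcgccgccgcggagacaaagatggct
NDUFS7: gtctgaaggccgaggccaagATGGCGgtgc
They lie at chr7:140696708-140696737 (plus strand), chr5:140647601-140647630 (minus), chr16:1959538-1959567 (plus), chr19:19516225-19516254 (plus), chr22:42090743-42090772 (minus), chrX:47144673-47144702 (minus), chr19:54102855-54102884 (plus) and chr19:1383907-1383936 (plus), in the same order. None of the 8 starts with C followed by 4 bases that are all C or T, the form of a terminal oligopyrimidine start. Among the 30 members with a window in the table, NDUFC1 had such a start, against 5.14% of 27305 genes. The string AAGATGGCG, searched on both strands from 250 bases before to 50 after the start, was held by 5 of the 30 members (16.7%) and 2.14% of all genes. It resembles the core of TISU, a start-codon element of mRNAs with short leaders. The 5 were NDUFA6, NDUFA7, NDUFA9, NDUFB8 and NDUFS7, each with the string in the 50 bases after the start. In NDUFA6 it runs past the stretch shown.

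Mean FPKM over the 12 libraries ran from 0.249 for NDUFA9 to 88.3 for NDUFB2, with a median of 5.48, against 6.0 for the tested genes. As this is bulk RNA, fewer transcribing cells and less RNA per cell cannot be told apart. Only 11 members were above 0 in all 12 libraries, and 13 had a mean of at least 10. Genes were tested where the mean was at least 1, which left 33 members; NDUFA9, NDUFS6 and NDUFV3 fell below it. The coding sequences of the members are short, with a median of 479 bases against 1323 for the tested genes. Across 33 members the rank correlation of gradient position with coding length was 0.14, and it was 0.02 across 10670 genes. These are descriptions over genes that share the same libraries.

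Some of the signal listed under members may belong to other genes. Of the 36 members, 16 (44.4%) overlap exons read from the other DNA strand, against 45.5% of the tested genes. The library kit keeps strand, per the labels, but the strand setting of the counting is not stated. The median of the mean FPKM was 8.48 for those 16 and 4.19 for the other 20; over the tested genes it was 9.94 and 4.31. NDUFB2 lies opposite exons of BRAF (1239 shared bases, mean 2.12 FPKM) and NDUFB2-AS1. NDUFA2 shares 124 exonic bases with TMCO6 (37.6 FPKM) and 70 with IK (29.6). NDUFB11 shares 636 with RBM10 (5.30), NDUFA1 341 with RNF113A (14.4), NDUFA3 157 with TFPT (14.4) and NDUFS3 234 with CELF1 (7.60). NDUFS3 also shares 6 with KBTBD4 (88.2). NDUFS7 shares 2693 with AC005329.1 and 1007 with AC005329.3, for which no level is listed. NDUFA7, at a mean of 4.56 FPKM, shares 89 bases with RPS28 (61.9), and NDUFB6, at 7.21, shares only 14 with SMIM27 (103). NDUFB9, at 7.84, shares 677 with MTSS1 (24.6) and 187 with TATDN1 (5.87). NDUFB10, NDUFA13, NDUFS8, NDUFB7 and NDUFA10 have no such partner. The part of the opposite strand in these values was not tested.

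**Figure D1:**
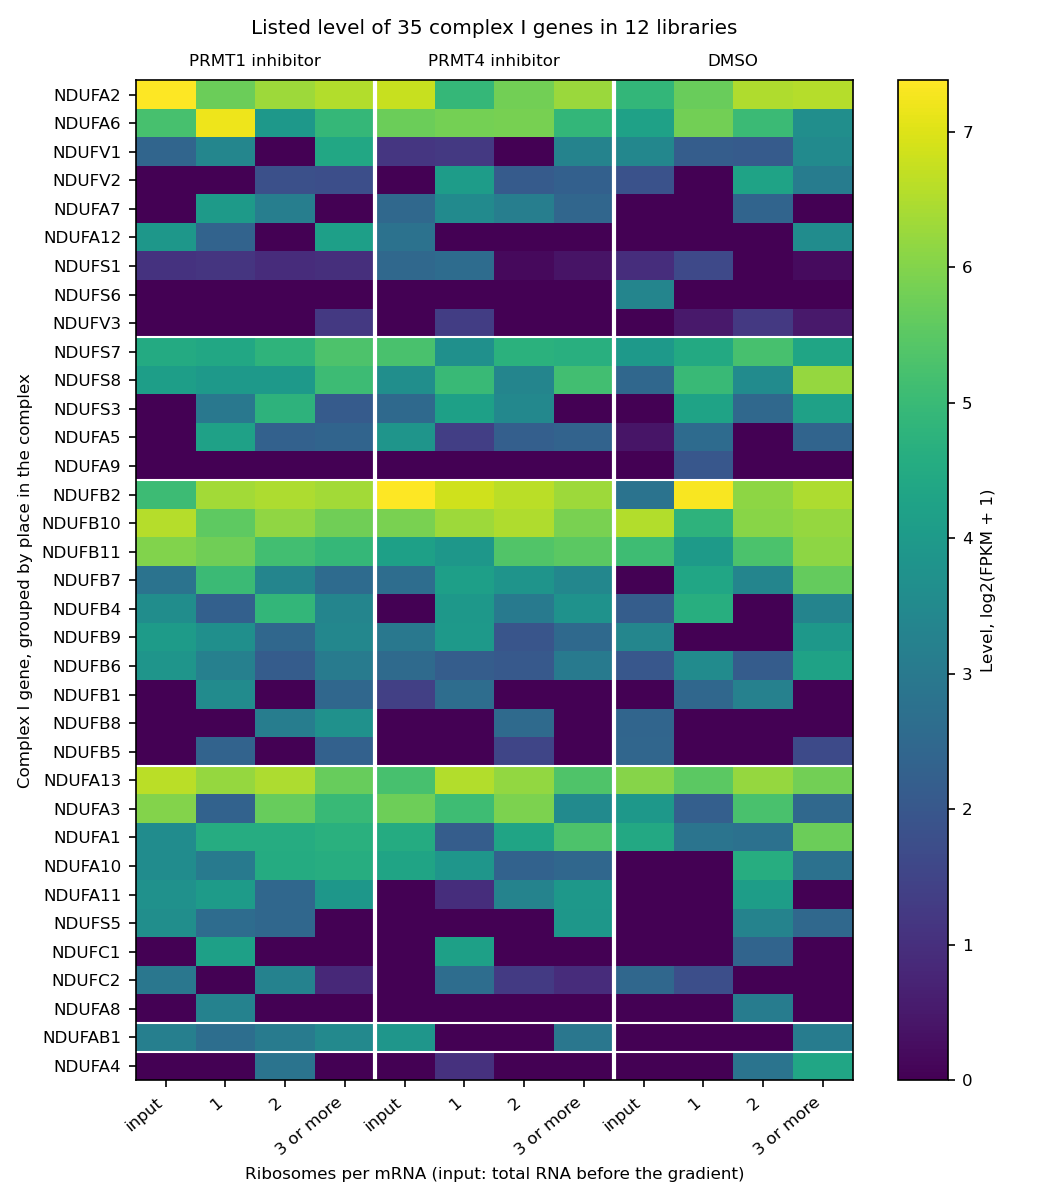
Colour gives log2(FPKM + 1) for 35 of the genes (rows, grouped from top to bottom as N module, Q module, distal membrane arm, other membrane-arm subunits, NDUFAB1 and NDUFA4, by falling mean within a group) in 12 libraries (columns, the 4 gradient fractions of the PRMT1 inhibitor, PRMT4 inhibitor and DMSO cultures). A few genes per group, such as NDUFA2, NDUFB2, NDUFB10 and NDUFA13, hold much of the signal, and many cells of the other rows are 0.

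Levels varied widely within the structural groups of the enzyme. The N module, which oxidises NADH, had 9 members with mean FPKM of 0.417 to 76.2 (median 4.56). Of its catalytic genes, NDUFV1, which binds NADH and the flavin, averaged 6.07 FPKM. NDUFV2 and NDUFS1, carriers of iron-sulfur clusters, averaged 4.73 and 1.48. The high values of that module belonged to accessory subunits, NDUFA2 (76.2) and NDUFA6 (44.6). The other accessory subunits, NDUFA7, NDUFA12, NDUFS6 and NDUFV3, averaged 4.56, 4.33, 0.765 and 0.417.

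The Q module, which reduces ubiquinone, had 6 members at 0.249 to 24.9 FPKM. NDUFS7, which carries the cluster next to ubiquinone, averaged 24.9, NDUFS8 23.6 and NDUFS3 9.11, with NDUFA5 at 4.85 and NDUFA9 the lowest. NDUFS7 was listed at 21.6, 20.6, 26.8 and 39.2 FPKM with the PRMT1 inhibitor, 37.4, 12.1, 25.4 and 24.3 with the PRMT4 inhibitor and 14.9, 21.3, 36.5 and 19.4 in DMSO. The ranges of the 3 treatments overlap.

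The distal membrane arm holds the NDUFB subunits, of which 10 were in the table at 1.38 to 88.3 FPKM (median 9.05). NDUFB2, NDUFB10 and NDUFB11 led, at 88.3, 67.0 and 37.7. NDUFB10 was listed at 93.3, 45.5, 70.2 and 54.1 FPKM with the PRMT1 inhibitor, 58.1, 77.7, 89.6 and 58.8 with the PRMT4 inhibitor and 92.1, 26.3, 66.2 and 72.5 in DMSO. Its lowest value was thus the DMSO fraction of 1 ribosome. NDUFB7 averaged 14.6, NDUFB4 10.3, NDUFB9 7.84, NDUFB6 7.21, and NDUFB1, NDUFB8 and NDUFB5 2.92, 2.43 and 1.38.

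The other 9 membrane-arm subunits ran from 1.36 FPKM (NDUFA8) to 65.5 (NDUFA13, also known as GRIM-19), with NDUFA3 at 30.3, NDUFA1 at 20.8, NDUFA10 at 11.1 and NDUFA11 at 7.22. NDUFS5, NDUFC1 and NDUFC2 averaged 4.05, 3.25 and 2.54. NDUFA13 was listed at 97.8, 73.7, 88.3 and 49.3 FPKM with the PRMT1 inhibitor, 36.7, 91.5, 71.1 and 39.7 with the PRMT4 inhibitor and 65.4, 45.0, 73.3 and 54.8 in DMSO. Its heavy fraction lay below its disome fraction in each treatment. NDUFAB1, the mitochondrial acyl carrier protein that sits in both arms, averaged 4.90, and NDUFA4 2.76.

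The first comparison asked where these mRNAs sat in the gradient. Gradient position is the log2 ratio of the heavy to the monosome fraction, from log2(FPKM + 1), centred on the median of all tested genes. The pseudocount understates differences of low genes. The member median lay near or below that of all genes with either inhibitor and above it in DMSO; the differences from DMSO follow further on. With the PRMT1 inhibitor the median was -0.03 over 32 members, 12 of them higher in the heavy fraction by 1.5-fold or more and 11 lower by as much (32.3% and 38.7% of tested genes). With the PRMT4 inhibitor it was -0.49 over 29 members, 11 higher and 14 lower (33.4% and 35.8%). In DMSO it was 1.25 over 28 members, 17 higher and 6 lower (32.5% and 38%). The DMSO median was 1.67 for members with no opposite-strand exon (11 of 15 higher, 2 lower), 0.25 for those with one (6 of 13 higher, 4 lower) and 0.88 for the 13 members averaging 10 FPKM or more. All tested genes had medians of -0.11, -0.09 and -0.08 in those 3 treatments. Members at 0 in both fractions have no value and were not counted.

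Summed over the 36 genes, the heavy fraction held 611 ± 47 FPKM and the monosome fraction 699 ± 48 with the PRMT1 inhibitor. The heavy and monosome sums were 532 ± 42 and 608 ± 51 with the PRMT4 inhibitor, and 726 ± 50 and 507 ± 43 in DMSO. The errors are counting errors computed from about 156 to 251 fragments per sum and leave out any spread between cultures. The log2 ratio of heavy to monosome sums was -0.19 ± 0.15 with the PRMT1 inhibitor, -0.19 ± 0.17 with the PRMT4 inhibitor and 0.52 ± 0.16 in DMSO. For the summed FPKM of all genes it was -0.15, -0.13 and -0.10. As a share of the summed FPKM of all genes, the members made up 0.188, 0.164, 0.162 and 0.160% with the PRMT1 inhibitor, 0.196, 0.155, 0.165 and 0.149% with the PRMT4 inhibitor and 0.173, 0.126, 0.151 and 0.194% in DMSO. On that scale the DMSO input lay above the DMSO monosomes and disomes.

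**Figure D2:**
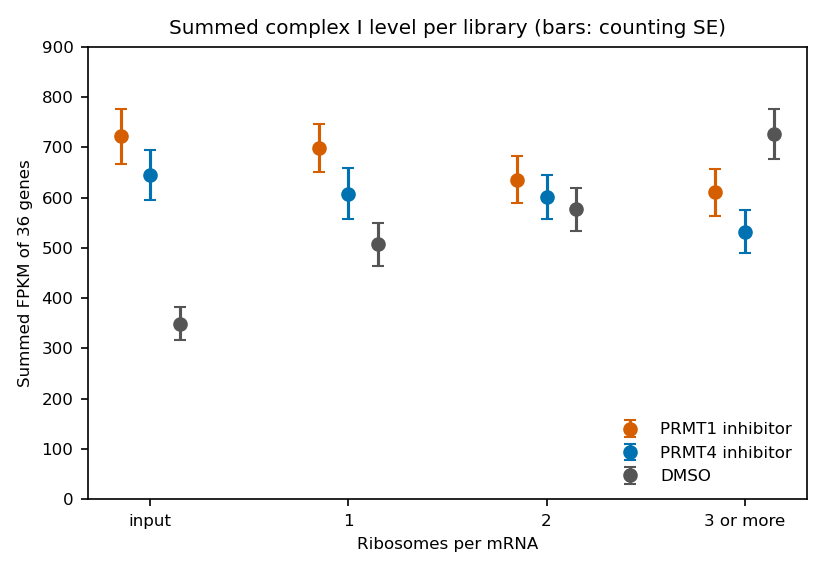
Points are the summed FPKM of the 36 genes (y axis) in each gradient fraction (x axis) for the PRMT1 inhibitor, PRMT4 inhibitor and DMSO, 1 library each, and bars are the counting standard error. The DMSO sum is 507 with 1 ribosome and 726 in the heavy fraction, and 349 in the input, a library whose FPKM over all genes is also the lowest, while the sums of both inhibitors are highest in the input, at 722 and 646.

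The gradient contrast common to the 3 treatments was tested with limma over the 12 libraries, with treatment as a block. The model estimates can differ from the mean of the centred ratios because each library is centred on its own median and genes at 0 in both fractions enter as equal. No member passed an adjusted p of 0.05 in either direction, against 2.55% of the 10706 tested genes called higher in the heavy fraction and 2.79% called lower. At an unadjusted p under 0.05 limma gave 4 members higher and 2 lower, against 1104 and 1076 of all genes. The median limma estimate was 0.70 over the 33 members and 0.05 over all genes. Without the DMSO libraries the member median was 0.15, without those of the PRMT1 inhibitor 0.66 and without those of the PRMT4 inhibitor 0.57.

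Single members stood at both ends. NDUFA1, an accessory subunit encoded on the X chromosome, was listed at 11.1, 22.8, 22.9 and 24.7 FPKM with the PRMT1 inhibitor, 22.3, 3.51, 18.8 and 39.2 with the PRMT4 inhibitor and 20.9, 6.14, 5.71 and 51.5 in DMSO. In fragments, its heavy and monosome fractions held about 8.0 and 7.04 with the PRMT1 inhibitor, 13.0 and 0.996 with the PRMT4 inhibitor and 17.0 and 2.01 in DMSO. The heavy fraction was the higher in each treatment, only slightly so with the PRMT1 inhibitor. Its limma estimate was 2.22 ± 0.71 (SE), a 4.65-fold ratio, with an adjusted p of 0.0949.

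NDUFA2, an accessory N-module subunit with a thioredoxin-like fold, had the most even gradient position of the members with a value in all 3 treatments (mean 1.05, SD 0.30). It was listed at 164, 51.6, 78.2 and 91.3 FPKM with the PRMT1 inhibitor, 107, 29.2, 54.5 and 76.0 with the PRMT4 inhibitor and 28.6, 51.2, 89.3 and 93.8 in DMSO. The listed FPKM climbed from 1 to 3 or more ribosomes in every treatment. In DMSO the last step was small, with about 28.7 fragments in the disomes and 28.4 in the heavy fraction. Its gradient position was 0.88, 1.40 and 0.88 in the PRMT1 inhibitor, PRMT4 inhibitor and DMSO cultures, and the limma estimate was 1.177 ± 0.40 with an adjusted p of 0.118. When genes under a mean of 10 FPKM were left out, it was the 1 member called, at 1.28 with an adjusted p of 0.0389.

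NDUFV1 was listed at 4.32, 9.44, 0 and 20.4 FPKM with the PRMT1 inhibitor, 1.23, 1.36, 0 and 8.92 with the PRMT4 inhibitor and 9.62, 3.55, 3.33 and 10.6 in DMSO. Its heavy fraction was the highest of the 3 ribosome fractions in every treatment, from about 2.55 to 5.69 fragments (limma 1.66 ± 0.76, adjusted p = 0.243). NDUFAB1 had the highest estimate, 2.44 ± 0.85 (adjusted p = 0.125), from 2.0 to 3.0 fragments in its heavy fractions. NDUFS8, a Q-module carrier of iron-sulfur clusters, was listed at 16.5, 14.6, 14.5 and 32.3 FPKM with the PRMT1 inhibitor, 11.4, 31.2, 9.18 and 34.2 with the PRMT4 inhibitor and 4.47, 31.0, 10.9 and 72.6 in DMSO (limma 0.98 ± 0.51, adjusted p = 0.305). Heavy exceeded monosome in each treatment, least with the PRMT4 inhibitor.

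NDUFA6, a LYR-motif accessory subunit that contacts the acyl carrier protein, lay at the other end. It was listed at 36.5, 146, 14.4 and 29.2 FPKM with the PRMT1 inhibitor, 51.6, 55.9, 56.7 and 28.5 with the PRMT4 inhibitor and 17.8, 54.8, 31.8 and 11.5 in DMSO. The monosome level was above the heavy level in each treatment, and the limma estimate was -1.63 ± 0.52 with an adjusted p of 0.0961. NDUFC1 had the lowest estimate (-2.63 ± 1.08, adjusted p = 0.191), from 17.5 and 17.3 FPKM with 1 ribosome under the PRMT1 and PRMT4 inhibitors and 0 in all 3 heavy fractions. NDUFS3, a core subunit of the Q module, was listed in its heavy and monosome fractions at 3.31 and 6.73 FPKM with the PRMT1 inhibitor, 0 and 17.4 with the PRMT4 inhibitor and 17.8 and 18.5 in DMSO. NDUFB7 and NDUFA13, next lowest among members with a mean of at least 5 FPKM, had estimates of -0.47 ± 0.79 and -0.32 ± 0.41 and did not have the same sign of gradient position in all treatments.

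Of 25 members with a gradient position in every treatment, 5 were above 0 in all 3 (NDUFA1, NDUFA2, NDUFAB1, NDUFS8 and NDUFV1) and 4 below (NDUFA6, NDUFB1, NDUFS1 and NDUFS3). Of the 9355 genes with such values, 19.5% were above 0 in all 3 and 25.4% below. NDUFA11, a membrane-arm subunit, had 2 gradient positions, of -0.07 with the PRMT1 inhibitor and 3.01 with the PRMT4 inhibitor, since both DMSO fractions were 0. By the string AAGATGGCG the members did not stand together: NDUFA6 and NDUFS7 averaged -1.75 and 0.62 in gradient position over 3 treatments, NDUFA7 -2.50 over 2, NDUFB8 was at 3.78 in 1, and NDUFA9 was not tested.

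**Figure D3:**
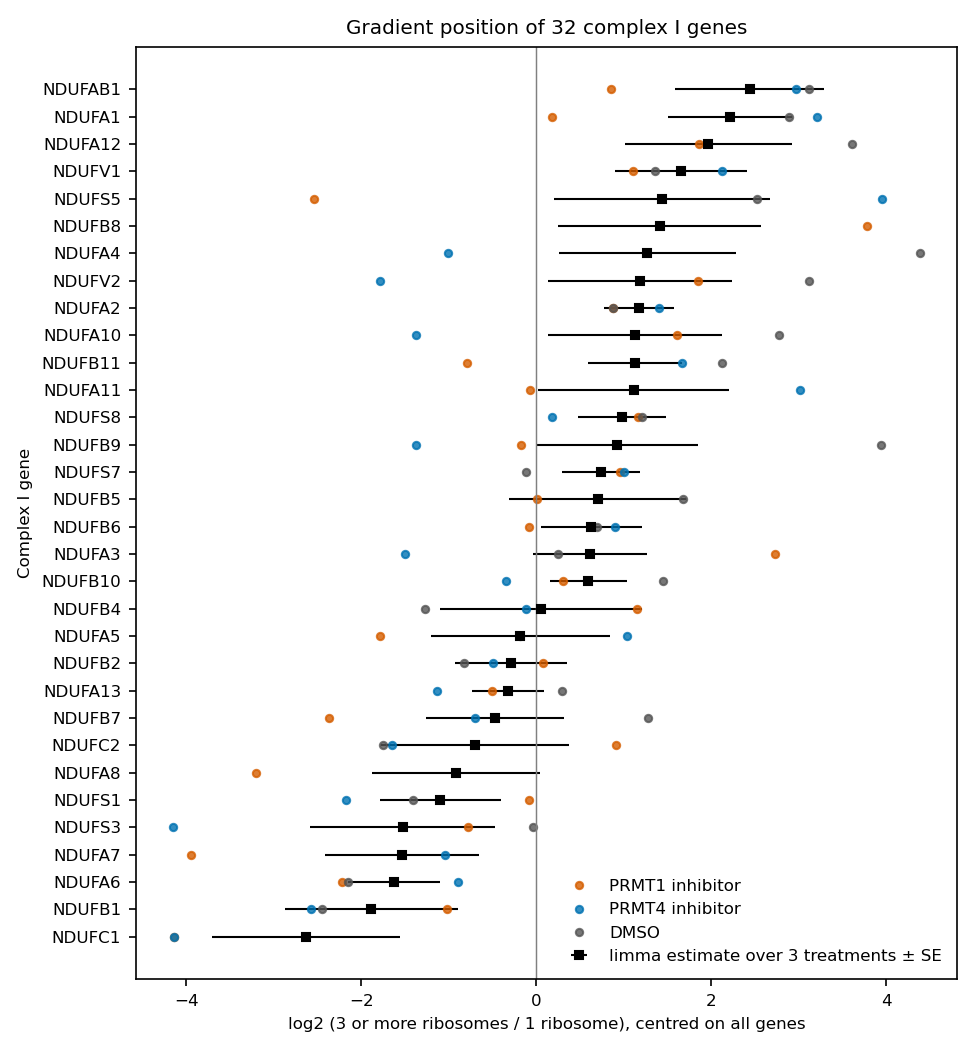
Each row is 1 of 32 complex I genes, with coloured points for the centred log2 ratio of the heavy to the monosome fraction in each treatment and a black square for the limma estimate over the treatments with its standard error. DMSO points lie mostly to the right of 0, while those of the inhibitors fall on both sides and most genes vary by several units between treatments.

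Polysome association, the centred log2 ratio of the heavy fraction to the input, differed less between the treatments. The member median was 0.16 with the PRMT1 inhibitor (12 of 29 at least 1.5-fold higher and 10 lower, background 35.6% and 35%). It was -0.03 with the PRMT4 inhibitor (11 of 28 higher and 11 lower, 33.5% and 31.9%). In DMSO it was 0.57 (13 of 28 higher and 8 lower, 37.6% and 31.3%), against 0.16 for all genes. Centring took 0.68 off the DMSO values, and without it 17 members were higher and 6 lower. The DMSO median was 1.95 for members free of opposite-strand exons and -0.23 for those with one. NDUFB2 showed how much 1 library can weigh: its DMSO input was 6.07 FPKM, about 1.29 fragments, beside 32.2 and 165 in the PRMT1 and PRMT4 inhibitor inputs, while its 9 ribosome-bound values ran from 68.8 to 159.

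The second comparison asked how the level in each fraction differed with the PRMT1 inhibitor. Both inhibitors are set against the same DMSO libraries. Complex I genes were listed higher with the inhibitor on monosomes, and their levels on 2 and on 3 or more ribosomes were centred near those of DMSO. With 1 ribosome the median log2 difference was 1.30 over 30 members, 20 at least 1.5-fold higher and 5 lower (33.4% and 27.9% of tested genes). With 2 ribosomes it was 0.05 (10 of 30 higher, 8 lower; 26.8% and 26.5%) and with 3 or more -0.01 (11 of 30 higher, 10 lower; 28.1% and 27.6%). In the input it was 0.32 (13 of 27 higher, 7 lower; 37% and 25.9%), against 0.19 for all genes; centring took 0.68 off every input difference, and without it 16 were higher and 5 lower. Members with a mean FPKM of at least 10 had a monosome median of 0.64, with 7 of 13 higher and 3 lower. The monosome median was 1.68 for members with no opposite-strand exon (13 of 15 higher, 2 lower) and 0.06 for those with one (7 of 15 higher, 3 lower). On monosomes 21 of the 36 members were above 0 in DMSO and 29 with the PRMT1 inhibitor. Many of the 20 higher members were at 0 in DMSO monosomes, among them NDUFA7, NDUFA8, NDUFA10, NDUFA11, NDUFA12, NDUFAB1, NDUFB5, NDUFB9, NDUFC1 and NDUFS5.

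On monosomes 7 of the 9 membrane-arm subunits outside the NDUFB group were at least 1.5-fold higher with the PRMT1 inhibitor and 1 lower. The shares of tested genes were 33.4% and 27.9%, and 5 of the 7 were at 0 in DMSO monosomes. With the PRMT4 inhibitor 6 of 7 were higher and 1 lower (31.3% and 30.3%). Of these 6, NDUFA10, NDUFA11 and NDUFC1 were at 0 in DMSO monosomes, and NDUFA11 held about 0.56 fragments with that inhibitor. In the Q module 2 of 5 were higher and 2 lower with the PRMT1 inhibitor. NDUFA10, a membrane-arm subunit with a kinase-like fold, was listed at 7.23 FPKM with the PRMT1 inhibitor and 0 in DMSO. NDUFA11 was listed at 15.4 and 0. NDUFB9, a LYR-motif subunit of the distal arm, was listed at 11.7 and 0. These rest on about 2.13, 9.73 and 3.76 fragments with the inhibitor. NDUFB11 was listed at 53.4 FPKM against 15.3 in DMSO, about 27.3 and 8.28 fragments, and NDUFA6 at 146 against 54.8. NDUFB2 went the other way, at 80.7 against 159, as did NDUFB4 (3.84 against 23.7) and NDUFS8 (14.6 against 31.0).

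Among members with a mean of at least 5 FPKM, NDUFA11, NDUFA10 and NDUFB7 had the highest input differences with the PRMT1 inhibitor, at 12.4, 11.1 and 6.02 FPKM against values listed at 0 in DMSO. NDUFV1 (4.32 against 9.62), NDUFA1 (11.1 against 20.9) and NDUFB10 (93.3 against 92.1) had the lowest of those members after centring, at -1.68, -1.53 and -0.66. Without centring the difference of NDUFB10 was 0.02. As a mean over the 3 ribosome fractions, 13 of 33 members were at least 1.5-fold higher and 4 lower (19.8% and 19.2% of tested genes; median 0.25). NDUFA11 (2.08), NDUFB9 (1.85) and NDUFA10 (1.58) were highest, and NDUFB7 (-0.83), NDUFS8 (-0.62) and NDUFB6 (-0.54) lowest among members with a mean of at least 5 FPKM. NDUFA3 and NDUFAB1 were above DMSO in all 4 fractions, and no member of the 22 with values was below in all 4 (9.41% and 5.31% of genes). On monosomes NDUFA3 was listed at 3.97 FPKM against 3.75, about 0.59 fragments in each. NDUFAB1 was at 0 in DMSO outside the heavy fraction.

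Gradient position was lower than in DMSO for most members. The median difference between the PRMT1 inhibitor and DMSO was -1.15 over 33 members, 8 at least 1.5-fold higher and 20 lower (34.1% and 35.3%). A member at 0 in both fractions of a treatment was counted here, with its fractions taken as equal there. In DMSO that held for NDUFA7 (-3.97), NDUFA8 (-3.23), NDUFC1 (-4.17), NDUFB8 (3.76) and NDUFA11 (-0.10), and with the inhibitor for NDUFA4 (-4.33). For the 13 members averaging 10 FPKM or more it was -0.08, with 4 higher and 6 lower. It was -1.68 over the 17 members free of such exons (14 lower, 2 higher) and -0.09 over the 16 with one (6 lower, 6 higher). The DMSO ratio that was high above is the one subtracted here, so the DMSO monosome and heavy libraries enter both results.

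NDUFB7 was listed at 5.01 FPKM with 3 or more ribosomes and 31.5 with 1 under the PRMT1 inhibitor, against 48.9 and 19.8 in DMSO. That is about 1.0 and 6.01 fragments against 9.94 and 4.01. NDUFB11 was listed at 29.2 and 53.4 with the inhibitor, against 69.4 and 15.3 in DMSO, so its order turned round on 15.6 and 27.3 against 37.8 and 8.28 fragments. NDUFB9 had 9.76 and 11.7 against 14.3 and 0. Highest among members with a mean of at least 5 FPKM, NDUFA3, a small accessory membrane subunit, had 30.5 and 3.97 FPKM against 4.59 and 3.75, NDUFB4 9.30 and 3.84 against 9.14 and 23.7, and NDUFS7 39.2 and 20.6 against 19.4 and 21.3. The values of NDUFA3 rest on about 4.73 and 0.589 fragments with the inhibitor, against 0.724 and 0.588 in DMSO.

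Polysome association differed from DMSO by a median of -0.21 with the PRMT1 inhibitor (12 of 30 higher, 14 lower; 34.8% and 36.6%). Without centring, which added 0.73, 5 were higher and 16 lower. NDUFV1 (2.61), NDUFS7 (1.2) and NDUFA3 (1.13) were highest, and NDUFB7 (-5.14), NDUFB6 (-2.29) and NDUFS8 (-2.09) lowest among members with a mean of at least 5 FPKM. NDUFB6 was listed at 7.36 FPKM with 3 or more ribosomes and 13.3 in the input under the inhibitor, against 18.1 and 3.03 in DMSO.

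The third comparison asked the same of the PRMT4 inhibitor. The member medians lay above DMSO in the input and below it in the heavy fraction, with members on both sides in each. The input median was 0.70 over 27 members, 15 at least 1.5-fold higher and 10 lower (39.6% and 28.9%), after 0.57 was taken off by centring. For all genes it was 0.19. At a 2-fold call 10 members were higher in the input and 10 lower. With 1 ribosome the median was 0.09 (12 of 26 higher, 7 lower; 31.3% and 30.3%), with 2 ribosomes 0.19 (12 of 31 higher, 10 lower; 29.6% and 24.5%) and with 3 or more -0.30 (6 of 29 higher, 11 lower; 30% and 28.2%). The summed FPKM of the 36 genes in the heavy fraction was 532 ± 42 with the inhibitor and 726 ± 50 in DMSO, a log2 ratio of -0.45 ± 0.15 (counting error), beside -0.07 for all genes.

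**Figure D4:**
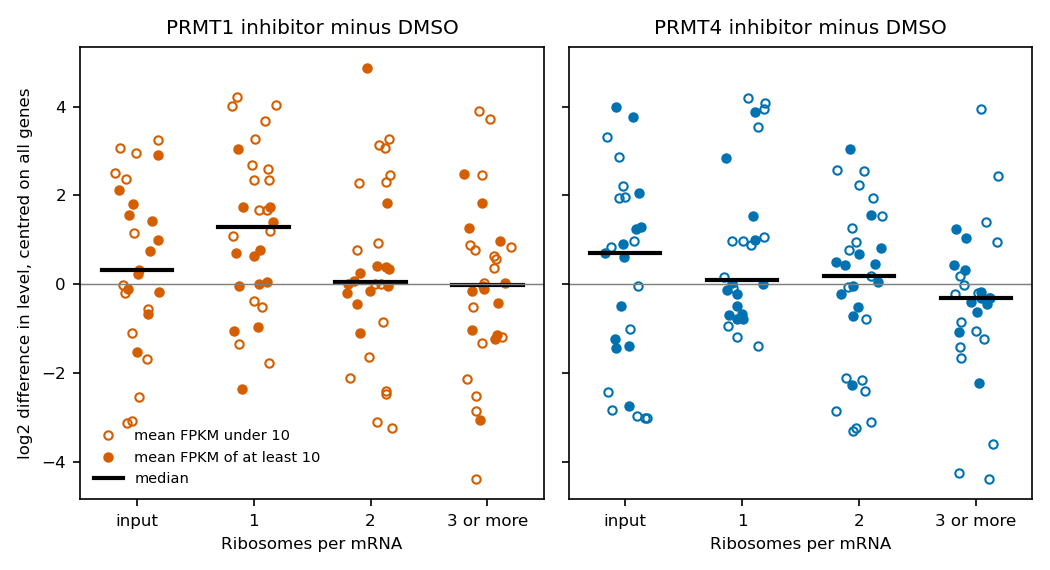
Points are complex I genes, with the centred log2 difference from DMSO on the y axis and the gradient fraction on the x axis, for the PRMT1 inhibitor (left) and the PRMT4 inhibitor (right); filled points have a mean FPKM of at least 10 and black bars are medians. The PRMT1 inhibitor median stands at 1.30 with 1 ribosome and near 0 with 2 and with 3 or more, and the PRMT4 inhibitor median is highest in the input (0.70) and lowest with 3 or more ribosomes (-0.30).

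In the input, among members with a mean of at least 5 FPKM, NDUFB2 (165 FPKM with the PRMT4 inhibitor against 6.07 in DMSO), NDUFA10 (19.0 against 0) and NDUFB7 (5.17 against 0) had the highest differences. NDUFV1 (1.23 against 9.62), NDUFB4 (0 against 3.53) and NDUFB11 (17.4 against 32.7) had the lowest of those members. The NDUFB11 values rest on about 9.01 and 18.1 fragments. As a mean over the ribosome fractions 8 of 33 members were higher and 10 lower (19.7% and 21.2%; median 0.12). Among members with a mean of at least 5 FPKM, NDUFA3, NDUFB9 and NDUFA11 were highest, at 1.47, 1.45 and 1.32, and NDUFS3, NDUFV1 and NDUFB6 lowest, at -1.17, -1.14 and -0.94. NDUFA3 was listed with the PRMT4 inhibitor at 52.5, 32.8, 60.2 and 10.5 FPKM, against 14.2, 3.75, 37.2 and 4.59 in DMSO, above DMSO in all 4 fractions. After centring NDUFA6, NDUFA7 and NDUFS1 were also above DMSO in all 4, and NDUFB6 and NDUFV1 below (10.1% and 6.73% of genes). Some of these differences are very small: on monosomes that of NDUFA6 was 0.03, from 55.9 FPKM against 54.8. NDUFS1 was listed at 0.14 FPKM against 0 on disomes, and NDUFA7 was at 0 in DMSO outside the disomes. The input of NDUFB6 was listed at 4.84 FPKM against 3.03 in DMSO, and its centred difference was -0.03.

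Gradient position differed from DMSO by a median of -0.82 with the PRMT4 inhibitor over 31 members, 7 higher and 16 lower (35.5% and 34.7%), and by -0.52 over the 13 members with a mean FPKM of at least 10 (3 higher, 6 lower). The median turned with the opposite strand: it was -1.58 for members with no such exon (3 of 16 higher, 11 lower) and 0.14 for those with one (4 of 15 higher, 5 lower). NDUFB9 was listed at 4.77 FPKM with 3 or more ribosomes and 14.5 with 1 under the inhibitor, against 14.3 and 0 in DMSO. NDUFA10 had 4.49 and 13.7 against 5.79 and 0, and NDUFS3 0 and 17.4 against 17.8 and 18.5. NDUFA11 (14.3 and 0.960 against 0 and 0), NDUFA6 (28.5 and 55.9 against 11.5 and 54.8) and NDUFB4 (12.7 and 14.3 against 9.14 and 23.7) were highest among members with a mean of at least 5 FPKM. Members at 0 in both fractions of a treatment were again counted, with those fractions taken as equal. In DMSO that held for NDUFA11 (2.94), NDUFA7 (-1.12) and NDUFC1 (-4.21), and with the inhibitor for NDUFA12 (-3.61) and NDUFB5 (-1.68). Polysome association differed by a median of -0.31 (11 of 31 higher, 13 lower; 36% and 37.8%), and without centring, which added 0.65, 8 were higher and 17 lower. Among members with a mean of at least 5 FPKM, NDUFA11, NDUFB4 and NDUFV1 were highest at 4.58, 3.25 and 2.67 and NDUFS3, NDUFB7 and NDUFB2 lowest at -6.12, -4.20 and -4.09.

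Related gene lists differed from the complex I subunits in some comparisons and lay on the same side in others. Assembly factors, which build the enzyme and do not stay in it, had gradient medians of -1.32, -0.40 and 0.02 over 12, 13 and 14 of 14 tested genes with the PRMT1 inhibitor, the PRMT4 inhibitor and DMSO. Nuclear-encoded subunits of complexes II to V had 0.40, 0.37 and 0.75 over 35, 33 and 35 of 37 tested genes. Their monosome level with the PRMT1 inhibitor differed from DMSO by a median of 0.11 (14 of 36 higher, 10 lower, background 33.4% and 27.9%), beside 1.30 for complex I. Their gradient position with the PRMT1 inhibitor differed from DMSO by -0.50 (9 of 37 higher, 18 lower, background 34.1% and 35.3%), beside -1.15 for complex I. Their heavy-fraction level with the PRMT4 inhibitor differed by -0.70 (6 of 35 higher, 20 lower, background 30% and 28.2%), beside -0.30. For the assembly factors the same medians, in that order, were 0.54 (5 of 13 higher, 3 lower), -0.98 (5 of 14 higher, 8 lower) and 0.31 (5 of 13 higher, 5 lower). No test of the difference between the lists was run. The 7 mitochondrially encoded complex I subunits, made on mitochondrial ribosomes, had gradient medians of -2.70, -5.23 and -2.15, and MT-ND5 was listed on monosomes at 253 FPKM with the PRMT1 inhibitor, 2110 with the PRMT4 inhibitor and 282 in DMSO.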

How the data were processed

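RNA from 12 HEK293T libraries was deposited by the authors as 1 table of FPKM per Ensembl gene. Per the submitters' processing notes, cutadapt 1.18, STAR 2.5.3a, RSEM and the GRCh37 build were used; annotation and strand setting are not given in the sources used here. Symbols came from a table of gene IDs and symbols; GENCODE 29 (GRCh38) served only for lengths and opposite-strand exons. Members and lists were chosen with earlier results of these data known. Values were analysed as log2(FPKM + 1) over 10706 named genes with a mean of at least 1, small-RNA and clone-style symbols left out, each difference centred on its median. With 1 library per group, counts at 1.5-fold are descriptions. The gradient contrast over the 3 treatments used limma 3.58.1 (R 4.3.3) with trend and Benjamini-Hochberg adjustment over all genes. Its p-values rest on the spread left in all 12 libraries, input included, after fraction and treatment are fitted, with no replicate culture. The fit was also run on simulated counting noise without spread between cultures. Changes were set there only in genes at high levels, so that run does not cover most members. Fragments were estimated from FPKM steps with transcript length less 150 bases, taking each gene's median coding transcript, so they are approximate for genes with several transcripts. Values of 1 member by name are not reported here; it stays in all counts, medians and sums. Named genes were the 8 highest by mean FPKM, the 7 core subunits and, at a mean of at least 5, the 4 highest and lowest in gradient position and the 3 in each inhibitor difference; others illustrate a result and were chosen after their values were seen.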

Additional observations from a re-analysis of the deposited data

How the results depend on the processing

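No paired analysis was possible because each group is 1 library with no replicate number, and the treatment block stands in the limma fit. Of 166 recomputed member medians, 148 moved by less than the standard error of the median over members and 18 by more. The 148 include 20 at a 2-fold call, which cannot move a median, and some without centring where centring took off 0. That standard error treats members from the same libraries as independent. Without centring, polysome association in DMSO was 1.25, the input difference 0.996 (PRMT1 inhibitor) and 1.27 (PRMT4 inhibitor), and the difference in polysome association -0.94 and -0.96; NDUFB10 turned to 0.0185 in the PRMT1 inhibitor input. With a pseudocount of 5 the PRMT1 inhibitor differences were 0.74 on monosomes and -0.53 in gradient position. With genes under a mean of 10 FPKM left out, and centring on the rest, these were 0.584 and -0.0744, gradient position with that inhibitor was 0.50, and limma called 1 member higher. Over members without an opposite-strand exon, polysome association in DMSO was 1.95; the PRMT1 inhibitor differences were 0.9997 (input), -1.68 (gradient position) and -1.04 (polysome association), and those of the PRMT4 inhibitor 1.01 (monosomes), -0.0863 (ribosome-bound) and -1.58 (gradient position). Set as 2 ribosomes against 1, the DMSO gradient position was 0.75. The causes were not tested. Among all genes limma called 273 higher and 299 lower; without DMSO 8 and 9, without the PRMT1 inhibitor 0 and 0 (772 and 750 at an unadjusted p under 0.05), without the PRMT4 inhibitor 97 and 127, without centring 119 and 286 and with no minimum 159 and 293. Depth, at a median of about 1.75 fragments per member and library, limits single-gene values.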
